A study of Mus musculus with 70 samples.

Results

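Microglia, the resident macrophages of the brain, were followed in these data through 9 genes that mark them: Cx3cr1, P2ry12, Tmem119, Csf1r, Aif1, C1qa, C1qb, C1qc and Trem2. The genes were chosen by name, and all 9 were found among the 34677 genes of the TPM table (a level scaled to transcript length and to the total of its library). All 9 also passed the filter on low counts, among 19980 genes tested. RNA was sequenced in 70 mouse libraries: 57 from 18 brain regions of adult mice at P56 (postnatal day 56), 9 from 4 brain regions of embryos at E14.5, and 4 from 2 embryonic stem cell (mESC) lines. The mice were C57BL/6NTac by the study's methods and C57BL/6 in the labels, the adults were male, the mESC lines came from C57BL/6, and the labels name no treatment or altered allele. The adult regions were the frontal pole (FRP), anterior cingulate (ACA) and entorhinal (ENT) cortex, the nucleus accumbens (ACB), the ventral tegmental area (VTA), the arcuate (ARH), dorsomedial (DMH), lateral (LHA), paraventricular (PVH) and ventromedial (VMH) hypothalamus, the parabrachial nucleus (PB), nucleus of the solitary tract (NTS) and dorsal-vagal complex (DVC) of the hindbrain, the cerebellar nuclei (CBN), and the cerebellar cortex of central lobule II (CENT2), the culmen (CUL4-5), the uvula (UVU) and the flocculus (FL). The embryonic regions were forebrain (F), midbrain (M), hindbrain (H) and the terminal and peduncular hypothalamus (THy/PHy). Groups had 2 to 4 libraries, and F had 1.

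Adult libraries were pools of punches from several mice, apart from 1 ACB library, and embryonic libraries were pools of several embryos, so the spread between replicates is a spread between pools. The same mice gave punches of several regions. Each mESC line was a single clone, grown on feeder cells that were removed by passaging before RNA was taken. All brain libraries hold bulk tissue, in which fewer microglia and less RNA per microglial cell cannot be told apart. Each stage had preparation batches of its own, so that differences by stage and by batch cannot be told apart.

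Microglia arise from yolk sac progenitors, settle in the brain during embryonic life and renew themselves there. Their survival depends on the receptor tyrosine kinase CSF1R, which binds the cytokines CSF1 and IL34. CX3CR1 is the receptor of fractalkine (CX3CL1), a ligand made by neurons, and P2RY12 senses ADP and guides microglial processes to sites of injury. TMEM119 is a membrane protein that marks resting parenchymal microglia, and AIF1 is the actin-binding protein IBA1 by which microglia are stained. C1QA, C1QB and C1QC are the chains of C1q, the recognition molecule of the classical complement pathway, which tags synapses for removal. TREM2 is a lipid-sensing receptor that signals through the adaptor TYROBP. Csf1r, Aif1, Cx3cr1 and the C1q chains are also made by other macrophages, including those at the borders of the brain.

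In the GENCODE M21 annotation of mouse build GRCm38, the C1q chains lie next to each other on the minus strand of chromosome 4, C1qb at chr4:136880129-136886187, C1qc at chr4:136889804-136893065 and C1qa at chr4:136895917-136898803. Aif1 (chr17:35170991-35176068, minus strand) and Trem2 (chr17:48346401-48354147, plus strand) share chromosome 17. Cx3cr1 lies at chr9:119901616-120069879, P2ry12 at chr3:59216272-59262871 and Tmem119 at chr5:113793729-113800516, all on the minus strand. Of the 5774 exonic bases of Csf1r, 873 (15.1%) overlap Hmgxb3 on the opposite strand. The library kit kept the strand, but whether the counting used it is not given in the sources used here, so Csf1r may hold some reads of Hmgxb3. For Cx3cr1 and P2ry12 such overlaps cover 1.73% and 0.353% of exonic bases.

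The start regions of members were searched for the core bound by PU.1 (Spi1), a transcription factor on which macrophages depend. The letters searched were GAGGAA and AGGAAG on either strand (reverse complements TTCCTC and CTTCCT), and the run GAGGAAG holds both. RefSeq promoter windows of build GRCm38.p6 run from 250 bases before to 50 after the start. They were searched for 6 of the 9 members, namely Aif1, C1qb, C1qc, Cx3cr1, P2ry12 and Trem2. The other members were not searched, so the share that follows describes these 6 only. Of the 6 member windows, 5 held either motif in the 250 bases searched (83.3%). Of the 32817 windows searched over the same length, 39.2% did, with GAGGAA in 23.3% and AGGAAG in 29.5%. The 3 stretches that lie before the start, outside annotated exons, and hold a match are given 5′ to 3′ on the strand of the gene, with the matches in capitals: 250 bases of C1qb (chr4:136886201-136886450, minus strand), 99 bases of C1qc (chr4:136893066-136893164, minus strand) and 250 bases of Trem2 (chr17:48346151-48346400, plus strand).
C1qb: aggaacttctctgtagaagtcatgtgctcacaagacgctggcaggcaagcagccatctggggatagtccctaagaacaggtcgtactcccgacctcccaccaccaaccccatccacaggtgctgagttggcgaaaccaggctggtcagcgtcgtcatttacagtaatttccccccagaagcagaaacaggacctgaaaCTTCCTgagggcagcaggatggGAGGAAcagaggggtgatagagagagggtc
C1qc: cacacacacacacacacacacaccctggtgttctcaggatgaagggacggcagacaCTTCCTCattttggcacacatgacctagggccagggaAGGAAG
Trem2: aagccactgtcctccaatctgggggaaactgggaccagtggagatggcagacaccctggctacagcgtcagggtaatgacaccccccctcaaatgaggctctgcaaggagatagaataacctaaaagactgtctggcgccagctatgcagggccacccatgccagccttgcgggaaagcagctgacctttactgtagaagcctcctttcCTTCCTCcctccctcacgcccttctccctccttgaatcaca
Every stretch holds both motifs, C1qb at separate places, Trem2 in a single overlapping run, and C1qc in such a run with a further AGGAAG at its end. The 234 such bases of Aif1 held no match, and the windows of Cx3cr1 and P2ry12 lay wholly in annotated exons. A match is a string of letters and no measurement of binding. Whether these motifs have a part in the levels of the members was not tested.

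Total counts per library ranged from 13409041 to 20647884 in adult regions, from 9074581 to 22229582 in embryonic regions and from 12985081 to 18501667 in mESC. Replicates of a group differed by more than counting noise in all 74 pairs. VTA replicate 1 had 39.6% of its TPM on mitochondrial transcripts and H replicate 1 had 22.6%, against a median of 7.49% over all libraries, and both are named below wherever a value rests on them. VTA replicate 1 was the lowest of the 3 VTA libraries in 8 of 9 members, with Tmem119 at 15.6% and C1qa at 16.99% of the mean of the other VTA libraries, but P2ry12 at 100.4%. H replicate 1 was the lowest and H replicate 3 the highest of the 3 H libraries in 9 of 9 members.

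Every brain library held all 9 members, and in mESC none exceeded 0.428 TPM. Summed over the 9 members, the level was 80.2 to 360 TPM in the 57 adult libraries (median 238), 45.4 to 138 TPM in the 9 embryonic libraries (median 73.8) and 0.483 to 0.774 TPM in the 4 mESC libraries. The adult sum was highest in ACB, at 340 to 360 TPM, and in the cortex, at 284 to 350 TPM. It was 219 to 309 TPM in the 14 hypothalamic libraries, 184 to 239 TPM in the 10 hindbrain nucleus libraries and 185 to 241 TPM in CBN. The 11 libraries of the vermal lobules CENT2, CUL4-5 and UVU had 80.2 to 150 TPM, below the 4 FL libraries at 152 to 194 TPM. VTA replicate 1 had 89.1 TPM and the other VTA libraries 252 and 273 TPM.

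**Figure D1:**
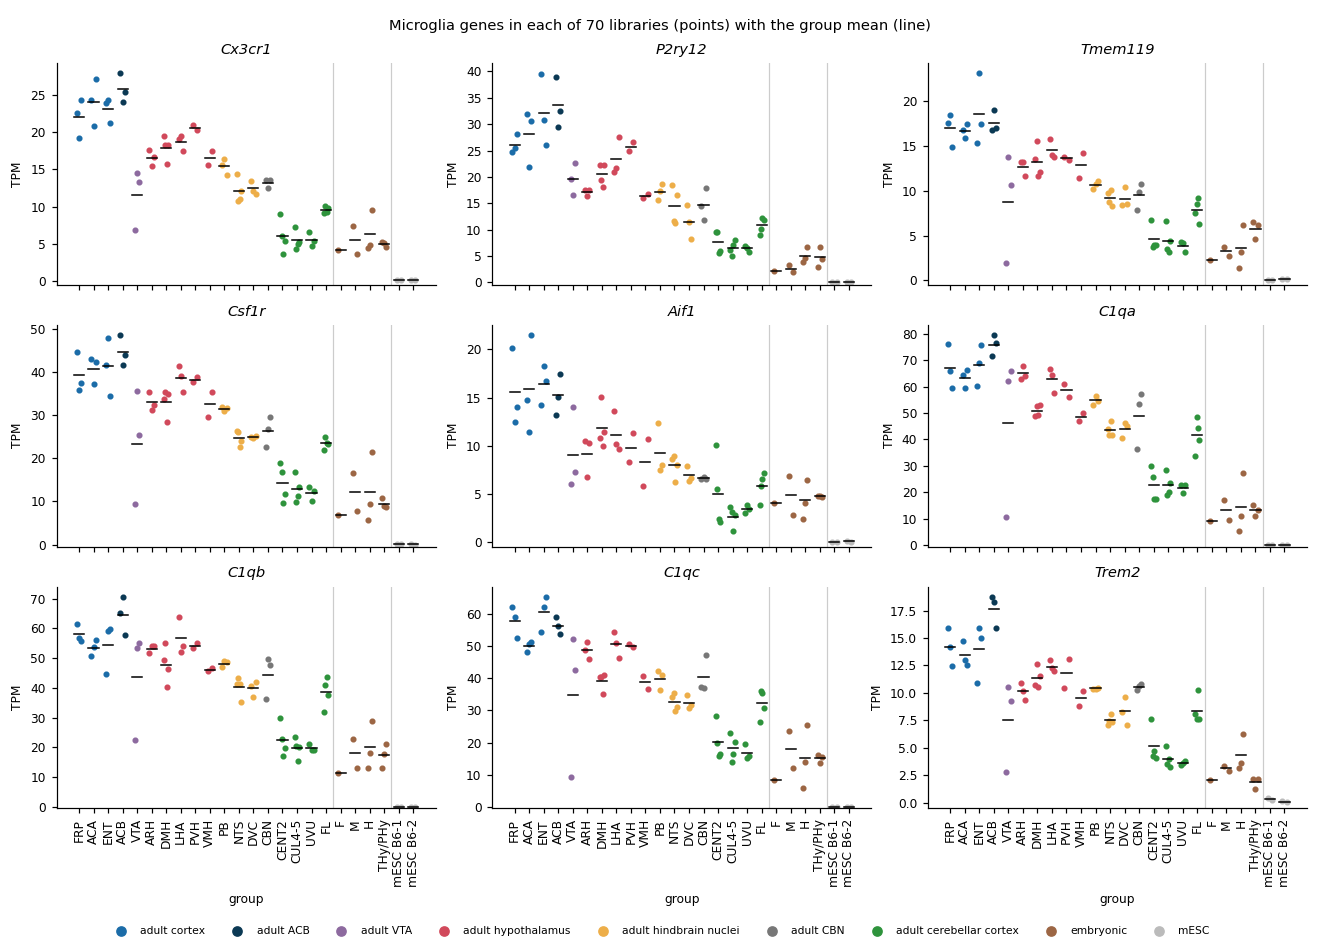
TPM of each of the 9 microglia genes in all 70 libraries, 1 panel per gene, with groups on the x axis, a point for each library and a line at each group's mean. Levels are highest in ACB and the cortex, low in the 3 vermal lobules and in the embryonic regions, and near 0 in mESC, with VTA replicate 1 low in 8 of 9 panels.

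Of the surface receptors, Csf1r had the highest level. Its TPM was 48.6, 41.7 and 44.0 in ACB, 41.6, 47.9 and 34.6 in ENT, and 42.97, 37.1 and 42.4 in ACA. In the cerebellar cortex Csf1r was 13.4, 10.1 and 12.4 TPM in UVU and 22.0, 24.9, 23.6 and 23.4 TPM in FL, so that every FL library lay above every UVU library. In the embryo it was 6.95 TPM in F, 16.7 and 7.80 in M, 5.66, 9.30 and 21.6 in H, and 10.8, 8.91 and 8.81 in THy/PHy. The replicates of M and H thus differed by more than the region means did. In VTA it was 9.39, 35.6 and 25.3 TPM, with the low value in replicate 1.

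Cx3cr1, the fractalkine receptor, was at 27.9, 24.004 and 25.4 TPM in ACB and at 24.3, 20.8 and 27.1 TPM in ACA. It was at 6.66, 4.73 and 5.38 TPM in UVU, at 7.27, 4.38, 5.03 and 5.22 TPM in CUL4-5, and at 9.19, 10.1, 9.23 and 9.84 TPM in FL. FL again lay above both lobules without overlap. Embryonic Cx3cr1 was at 4.24 TPM in F, 7.47 and 3.68 in M, 4.41, 4.82 and 9.58 in H, and 5.30, 5.06 and 4.64 in THy/PHy, a range close to the 3.68 to 9.06 TPM of the vermal lobules.

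P2ry12, the ADP receptor, reached 38.9, 29.5 and 32.4 TPM in ACB and 39.6, 30.7 and 26.0 TPM in ENT. It was at 6.97, 6.55 and 5.80 TPM in UVU and at 9.04, 10.1, 12.2 and 11.9 TPM in FL. In VTA it was at 19.7, 16.6 and 22.6 TPM, the only member for which replicate 1 was not the lowest. Embryonic levels were 2.17 TPM in F, 3.22 and 2.02 in M, 3.91, 4.55 and 6.74 in H, and 2.94, 6.79 and 4.44 in THy/PHy. No embryonic library reached the lowest adult library outside the cerebellar cortex, which had 8.30 TPM.

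Trem2 and Aif1 had the lowest levels together with Tmem119. Trem2 was at 18.8, 18.2 and 15.9 TPM in ACB, 3.42, 3.64 and 3.83 TPM in UVU and 8.05, 7.59, 10.3 and 7.64 TPM in FL. In the embryo it was at 2.05 TPM in F, 3.37 and 2.93 in M, 3.21, 3.62 and 6.28 in H, and 2.16, 1.27 and 2.19 in THy/PHy, where every library was below every H library. Tmem119, the marker of resting microglia, was at 16.8, 19 and 17.01 TPM in ACB, 15.3, 23.1 and 17.46 in ENT, 4.32, 4.21 and 3.18 in UVU and 7.57, 8.51, 9.20 and 6.32 in FL. It was at 2.25 TPM in F, 3.73 and 2.78 in M, 1.35, 3.20 and 6.17 in H, and 6.54, 4.63 and 6.14 in THy/PHy. Its order between H and THy/PHy was thus the opposite of that of Trem2, although H overlapped THy/PHy for Tmem119.

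Aif1, the gene of IBA1, was at 14.2, 18.2 and 16.7 TPM in ENT, 14.7, 11.4 and 21.48 TPM in ACA, and 3.59, 3.07, 1.12 and 2.76 TPM in CUL4-5. It rested on few reads, with 5 to 108 counts per adult library (median 43) and 5 to 38 per embryonic library. Its embryonic levels, 4.07 TPM in F, 6.88 and 2.82 in M, 2.39, 4.09 and 6.43 in H, and 4.80, 4.77 and 4.67 in THy/PHy, lay inside the adult range. Its TPM was also spread over 7 annotated transcripts. The protein-coding Aif1-203 held 40.4% of it in adult and 10.5% in embryonic libraries, and the processed transcript Aif1-202 held 26.6% and 44.0%, shares that few reads support.

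The C1q chains had the highest levels among the members. C1qa was at 71.5, 79.4 and 76.5 TPM in ACB, 22.7, 19.7 and 22.7 in UVU and 33.7, 48.7, 44.3 and 39.8 in FL. C1qb was at 65.3, 70.5 and 57.7 TPM in ACB, 21.2, 19.2 and 19.1 in UVU and 32.0, 41.0, 43.6 and 37.7 in FL. C1qc was at 59.2, 56.4 and 53.8 TPM in ACB, 19.5, 15.2 and 15.8 in UVU and 26.5, 36.2, 35.4 and 30.8 in FL. For all 3 chains every ACB library was above every FL library, and every FL library above every UVU library. Over the 9 embryonic libraries, C1qa ran from 5.50 to 27.5 TPM (median 11.1), C1qb from 11.3 to 28.8 TPM (median 17.7) and C1qc from 5.99 to 25.4 TPM (median 13.9).

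The order of the 18 adult regions was much the same for each gene. Of the 9 members, 6 had their highest regional mean in ACB and 3 (Tmem119, Aif1 and C1qc) in ENT, and all 9 had their 3 lowest adult means in the vermal lobules. Between the highest and the lowest adult region, means differed 6.22-fold for Aif1, 5.22-fold for P2ry12, 4.86-fold for Trem2, 4.77-fold for Tmem119 and 4.71-fold for Cx3cr1, and by 3.26- to 3.74-fold for Csf1r and the C1q chains. The coefficient of variation over adult region means ran from 29.1% for C1qb to 45.5% for P2ry12. In the edgeR test for any difference among adult regions all 9 passed at an adjusted p under 0.05, as did 80.9% of the genes tested, with adjusted p from 1.09e-21 for Cx3cr1 to 6.89e-11 for Aif1. Most neighbours in the order were not separated: of the 23 neighbouring pairs among the 24 groups, 3 to 6 per member differed by more than the larger SD of the pair. For 6 of 9 members the step just below FL was such a pair.

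**Figure D2:**
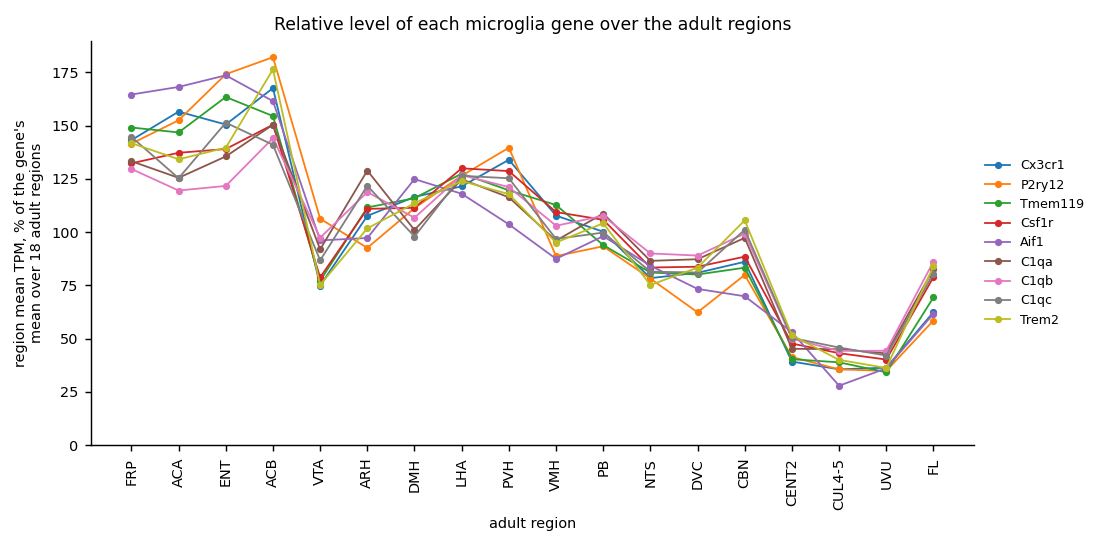
Mean TPM of each member in each of the 18 adult regions, as a percentage of that gene's mean over those regions, with a line for each gene. The lines run close together, highest in ACB and the cortex and lowest in CENT2, CUL4-5 and UVU, with FL above those lobules.

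Over the 18 adult region means of log2(TPM + 1), the 36 pairs of members had a Pearson r of 0.911 to 0.992 (median 0.965) and a Spearman rho of 0.899 to 0.990 (median 0.944). These points share libraries and animals, and the values are descriptive. Without VTA replicate 1 the median r was again 0.965. Cx3cr1 and Tmem119 were the closest pair, with r of 0.992, together with C1qa and C1qb, also 0.992. Among 15504 genes with a mean of at least 1 TPM over adult regions, the 10 outside the list most like the mean profile of the members were Itgam (CD11b, r = 0.987), Laptm5 (0.985), Nckap1l (0.980), Tmem132b (0.979), Cyth4 (0.979), Selplg (0.979), Cd53 (0.978), Siglech (0.977), Arhgap30 (0.975) and Csf3r (0.969). Of these, Laptm5 reached 123 TPM in an mESC library, and Nckap1l reached 6.67 TPM there, above its highest adult region mean of 5.85 TPM, so neither was restricted to brain. Arhgap30 reached 1.13 TPM in mESC. The gene nearest to P2ry12 was its relative P2ry13 (r = 0.985), and the nearest to Aif1 was Tmem132b (0.974). A list of 20 other microglia genes had 15 within the first 100 of the ranking and a median r of 0.936, against -0.15 over all genes ranked.

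The embryonic regions were compared with the adult regions with edgeR's quasi-likelihood test, as the mean of 4 against the mean of 18 region coefficients. All 9 members were lower in the embryo at an adjusted p under 0.05. So were 36.7% of the genes tested, and 74.3% were called in either direction. P2ry12 fell most, with a log2 fold change of -2.21 ± 0.16 (SE; adjusted p = 5.91e-18), from a mean of 18.4 TPM over adult regions to 3.65 TPM over embryonic regions. C1qa changed by -1.99 ± 0.15 (50.4 against 12.6 TPM), Trem2 by -1.73 ± 0.12 (10.001 against 2.86 TPM) and Tmem119 by -1.61 ± 0.15 (11.4 against 3.71 TPM). Csf1r, C1qc, Cx3cr1 and C1qb lay between -1.52 and -1.42. Aif1 changed least, by -1.03 ± 0.18 (adjusted p = 1.09e-06), from 9.43 to 4.49 TPM. The median over the 9 members was -1.52, where that over all genes tested was 0. Every embryonic library was below every adult library outside the cerebellar cortex for P2ry12 alone (5.48% of 19351 genes). Leaving out VTA replicate 1, this held for 8 members, Aif1 being the exception (8.76% of genes).

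Markers of other cells differed along with stage. Of 8 genes of border macrophages, the perivascular and meningeal relatives of microglia, 6 were higher and 2 lower in the embryo, with a median log2 fold change of 2.12. Lyve1 (3.44), Pf4 (3.06), F13a1 (2.74) and Mrc1 (2.54) were higher. Their summed level was 31.2 to 118 TPM in the embryonic libraries and 9.73 to 32.1 TPM in the adult libraries, with no marker at 0 in every library. Globin genes and Alas2, which mark red cells, were higher for 5 of 5, with a summed level of 3695 to 9805 TPM against 406 to 6889 TPM. Oligodendrocyte genes were lower for 6 of 6, at 19.6 to 58.5 TPM against 640 to 18327 TPM, and astrocyte genes for 7 of 7 (median -3.18), while fibroblast genes were higher for 3 of 3 (3.21). The part of these cells in the members' difference was not tested.

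The mESC lines hold no brain tissue, and whether their few counts of the members are background was not tested. All 9 members were lower in mESC than in the embryonic regions (77.6% of genes called, 38.9% lower), and every mESC library was below every embryonic library for all 9, as for 30.2% of genes. Summed over the 4 mESC libraries, C1qb had 0 counts. With a floor of 3 counts over the group the embryonic level was 208-fold higher. The lower limit by the 95% counting interval, as given for the other members, was 169-fold. P2ry12, Aif1 and C1qc had 1 count each and C1qa 2, with embryonic to mESC ratios of 272 (95% counting interval 48.8 to 10745), 92.9 (16.7 to 3669), 584 (105 to 23068) and 220 (60.8 to 1815). Tmem119 had 8 counts, Csf1r 19, Trem2 26 and Cx3cr1 30. The ratio was 82.6 for Csf1r (52.9 to 137), 37.8 for Tmem119 (19.2 to 87.6) and 26.1 for Cx3cr1 (18.3 to 38.7), and 4.88 for Trem2 (3.33 to 7.48), so that Trem2 stood least above the stem cells. These intervals cover the counting error of the mESC counts only.

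**Figure D3:**
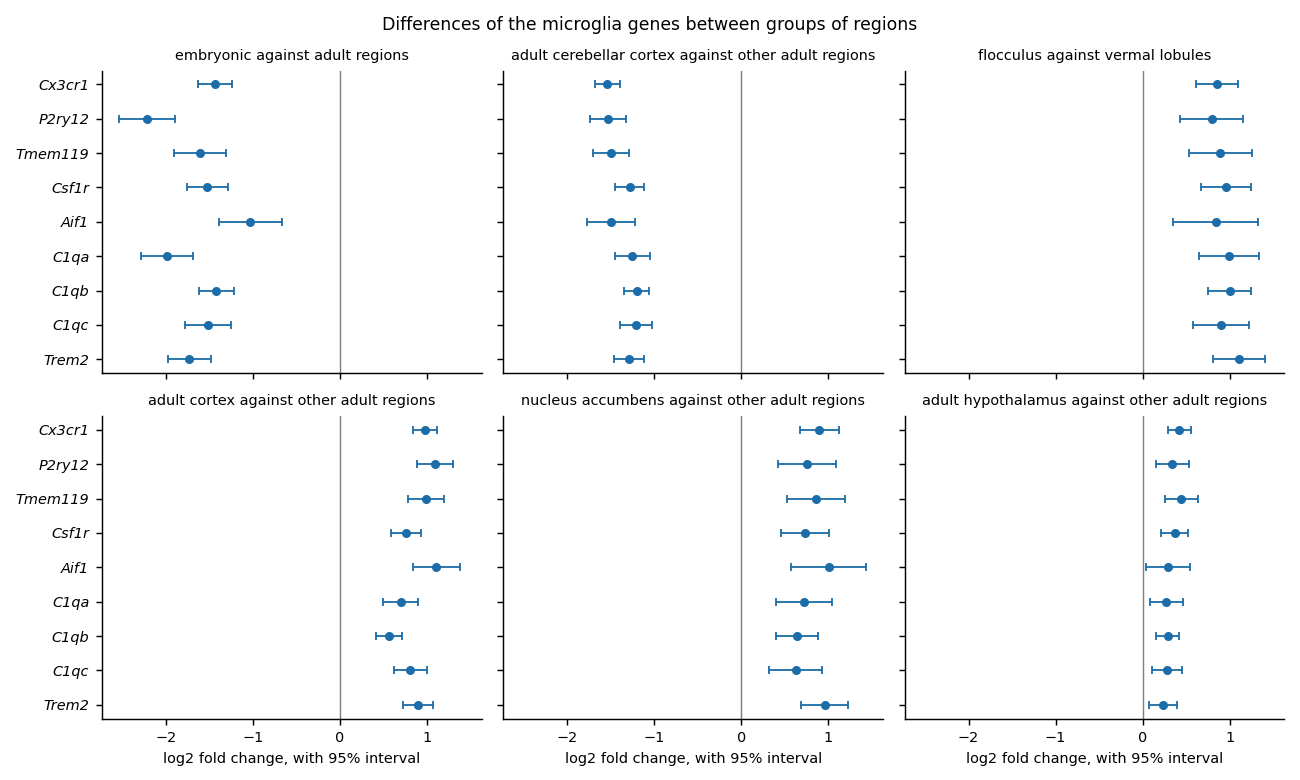
Log2 fold change of the 9 microglia genes in 6 comparisons by edgeR, with bars for the 95% interval and a line at 0. All 9 are lower in the embryo and in the cerebellar cortex, and all 9 are higher in cortex, in ACB and in FL against the vermal lobules.

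Among adult regions, the cerebellar cortex stood lowest. Against the mean of the other 14 adult regions all 9 members were lower, where 33.1% of genes were called lower, 32.9% higher and 66% in all, and the median was -1.29 for the members and 0 for all genes. Cx3cr1 changed by -1.54 ± 0.07 (adjusted p = 8.99e-26), P2ry12 by -1.53 ± 0.10, Aif1 and Tmem119 by -1.49 each, Trem2 by -1.29 ± 0.09 and Csf1r by -1.28 ± 0.08. C1qa, C1qc and C1qb changed by -1.25, -1.21 and -1.20. The 42 libraries outside the cerebellar cortex had a median of 17.46 TPM for Cx3cr1 (6.81 to 27.9), and the 15 libraries of the cerebellar cortex 6.03 TPM (3.68 to 10.1). The overlap came from VTA replicate 1, since the next lowest library outside was an NTS library at 10.8 TPM. With that replicate left out, every vermal library was below every other adult library, FL included, for Cx3cr1, Csf1r, C1qa and C1qb (0.284% of genes), and with it for none of the 9 (0.119%). Of the other markers, oligodendrocyte genes were lower for 5 of 6 and red cell genes higher for 5 of 5 in the cerebellar cortex. Fibroblast genes were higher for 3 of 3 (median 1.14) and astrocyte genes for 4 of 7 (0.80), and the part of these cells in the result was not tested.

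Within the cerebellar cortex the flocculus differed from the vermal lobules, a comparison that was added after the values had been seen. All 9 members were higher in FL than in the mean of CENT2, CUL4-5 and UVU, against 15.6% of genes called higher and 30.6% called in all. Trem2 rose by 1.11 ± 0.15 on the log2 scale (adjusted p = 4.50e-08), C1qb by 1.00 ± 0.12 (9.15e-09) and C1qa by 0.99 ± 0.17. Csf1r, C1qc, Tmem119, Cx3cr1, Aif1 and P2ry12 followed, at 0.96, 0.90, 0.89, 0.85, 0.84 and 0.79. Every FL library was above every vermal library for Cx3cr1, Csf1r, C1qa and C1qb, as for 3.75% of genes, while the other 5 overlapped. CENT2 replicate 1 was the highest of its 4 libraries in 8 of 9 members and lay above the lowest FL library for each of these 5, with Tmem119 at 6.74 TPM against 3.72 to 3.98 in its replicates and 6.32 in the lowest FL library.

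Markers of several other cell types were higher in FL as well. Its oligodendrocyte genes summed to 8691 to 11701 TPM, against 1360 to 3731 TPM in the vermal lobules, with 6 of 6 genes higher and a median log2 fold change of 2.26 (Mobp 2.42, Mbp 2.35). Red cell genes summed to 5382 to 6889 TPM against 845 to 4182 TPM, and 5 of 5 were higher. All 3 choroid plexus genes were higher as well, Ttr most (7.38), with a sum of 33.2 to 3021 TPM against 0.984 to 2074 TPM. Blood leukocyte genes summed to 16.6 to 46.5 TPM against 1.22 to 8.25 TPM, led by S100a8 (3.59). Of the border macrophage genes 1 of 8 was higher, with sums of 21.004 to 32.1 TPM and 12.6 to 30.7 TPM. Neuron genes summed to 2927.5 to 3084 TPM in FL against 3031 to 3714 TPM in the vermal lobules. Sums also overlapped for astrocyte genes (3530 to 4344 against 2735 to 6132.5 TPM) and endothelial genes (112 to 152 against 96.4 to 145 TPM). The part of these cells in the members' difference was not tested.

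Cortex and ACB were highest, with exceptions for the C1q chains. For C1qa ARH lay above ACA (64.9 against 63.2 TPM). For C1qb LHA (56.7 TPM) lay above ENT (54.5 TPM) and ACA (53.5 TPM), and PVH (54.2 TPM) lay above ACA. For C1qc LHA lay above ACA (50.6 against 50.2 TPM). In cortex all 9 members were higher than in the other 15 adult regions (28.9% of genes higher, 29.8% lower, 58.7% called). Aif1 rose by 1.11 ± 0.13 and P2ry12 by 1.09 ± 0.10, Tmem119 and Cx3cr1 by 0.99 and 0.98, Trem2, C1qc and Csf1r by 0.89, 0.81 and 0.76, and C1qa and C1qb by 0.70 and 0.57. The interval of C1qb, 0.42 to 0.72, lay below that of P2ry12, 0.89 to 1.30, but the difference between members was not tested here. In ACB, a part of the ventral striatum, all 9 were again higher (21.8% of genes higher, 41.3% called), from 0.62 ± 0.15 for C1qc to 1.00 ± 0.21 for Aif1, with Trem2 at 0.96 ± 0.14 and Cx3cr1 at 0.89 ± 0.11. No member had every cortex and ACB library above every other adult library, as 1.7% of genes did. Oligodendrocyte genes were lower in cortex for 6 of 6 and passed in ACB for 0 of 6, and red cell genes were lower in ACB for 3 of 5. Astrocyte genes were lower for 5 of 7 in both, with a median log2 fold change of -0.80 in cortex and -0.48 in ACB, and fibroblast genes for 3 of 3 in both (-0.82 and -1.19). Neuron genes were higher for 3 of 4 in cortex (0.70), and genes of dividing cells for 2 of 2 in ACB (3.46). The part of these cells in the result was not tested.

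Hypothalamus was intermediate. All 9 members were higher there than in the mean of the other 13 adult regions (26.9% of genes higher, 51.3% called), by small amounts. These were 0.44 ± 0.09 for Tmem119, 0.42 ± 0.06 for Cx3cr1, 0.37 ± 0.08 for Csf1r, 0.34 ± 0.09 for P2ry12 and 0.23 to 0.29 for the other 5. The other 13 regions include the low cerebellar cortex. Mean Cx3cr1 was 18.1 TPM in the hypothalamus, 23.1 in cortex, 25.8 in ACB and 6.68 in the cerebellar cortex. How far the calls rest on the cerebellar cortex was not tested. Aif1 was at the limit, at 0.29 ± 0.13 (adjusted p = 0.0457), and was not called with limma, without the filter on low counts, with the replicate block or for 26 of 57 libraries left out one at a time (adjusted p of 0.0269 to 0.1003 over the alternatives). Red cell genes were lower in the hypothalamus for 5 of 5, and their part in the result was not tested.

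In CBN, the hindbrain nuclei and VTA few members were called. In CBN 0 of 9 members passed in edgeR, where 40.8% of genes did (22.1% higher, 18.7% lower). Their log2 fold changes ran from -0.21 ± 0.25 for Aif1 to 0.20 ± 0.16 for C1qc, 0 had an unadjusted p under 0.05, and DESeq2 and limma called 0 as well. The interval of Cx3cr1, -0.24 to 0.24, leaves room for a modest difference either way. In the hindbrain nuclei P2ry12 alone passed (50.7% of genes called, 24.6% lower), at -0.29 ± 0.11 (adjusted p = 0.0238), with 10 libraries from 8.30 to 18.6 TPM (median 15.2). Leaving out PB replicate 1, NTS replicate 3 or DVC replicate 3 ended that call, with values between -0.37 and -0.22 over the libraries left out. Oligodendrocyte genes were higher in the hindbrain nuclei for 6 of 6 (median 1.79) and endothelial genes for 3 of 4 (0.37), and the part of these cells was not tested.

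In VTA P2ry12 rose by 1.01 ± 0.16 (adjusted p = 1.11e-06) and C1qb by 0.47 ± 0.12 (adjusted p = 0.00131), while 40.9% of genes were called and 22.7% were higher. The size of the P2ry12 value rests on VTA replicate 1, which had 682 counts of it. Without that library and H replicate 1, P2ry12 was at 0.45, C1qb at 0.56, C1qa at 0.63 and C1qc at 0.52, and these 4 were called. Without VTA replicate 3 the call of C1qb was lost. On log2 TPM with limma, P2ry12 was not called in VTA, at 0.257 or more with an adjusted p of up to 0.192, and C1qa, C1qb, C1qc, Tmem119 and Trem2 had negative values, at -0.65 to -0.06, while the median of all genes moved by -0.39 between the fits. The cause was not tested. Oligodendrocyte genes were higher in VTA for 6 of 6 (median 1.81) and neuron genes for 3 of 4 (0.60), and the part of these cells in the result was not tested.

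To compare the members with each other apart from their joint amount, each member was divided by Csf1r. The log2 ratio of TPM (pseudocount 0.5 TPM) was compared between region means by exact two-sided permutation tests, 16 in all and with p not adjusted. Between the 4 embryonic and the 18 adult regions (7315 groupings), 3 of 8 ratios had a p under 0.05. P2ry12 fell relative to Csf1r by 0.64 (from -0.73 ± 0.27 to -1.36 ± 0.46, SD over regions, exact permutation p = 0.0015) and C1qa fell by 0.46 (from 0.75 ± 0.10 to 0.29 ± 0.14, exact permutation p = 0.000137, the smallest these groupings can give). For C1qa the embryonic regions, at 0.16 to 0.46, lay wholly below the adult regions, at 0.57 to 0.97. Aif1 rose relative to Csf1r by 0.63 (from -1.67 ± 0.26 to -1.05 ± 0.28, exact permutation p = 0.000684). The other 5 differed by -0.12 to 0.13, with p from 0.121 to 0.939. Csf1r and several other members are also made by border macrophages, whose genes summed to 31.2 to 118 TPM in embryonic libraries. In adult libraries that sum was 9.73 to 32.1 TPM. The part of these cells in the ratios was not tested, nor was that of Hmgxb3 reads in Csf1r.

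Between the 4 regions of the cerebellar cortex and the 14 other adult regions (3060 groupings), 2 of 8 ratios had an exact permutation p under 0.05. Cx3cr1 fell relative to Csf1r by 0.25 (from -0.91 ± 0.09 to -1.16 ± 0.09, exact permutation p = 0.000327), the smallest these groupings can give. Tmem119 fell by 0.15 (from -1.35 ± 0.11 to -1.50 ± 0.03, exact permutation p = 0.0229), and this was no longer under 0.05 without CENT2 replicate 2, UVU replicate 3, FL replicate 4 or VTA replicate 3. For the other 6 the p was between 0.103 and 0.504. Against Cx3cr1 in place of Csf1r, 5 ratios passed. Regions share mice, so these region means are not fully independent.

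**Figure D4:**
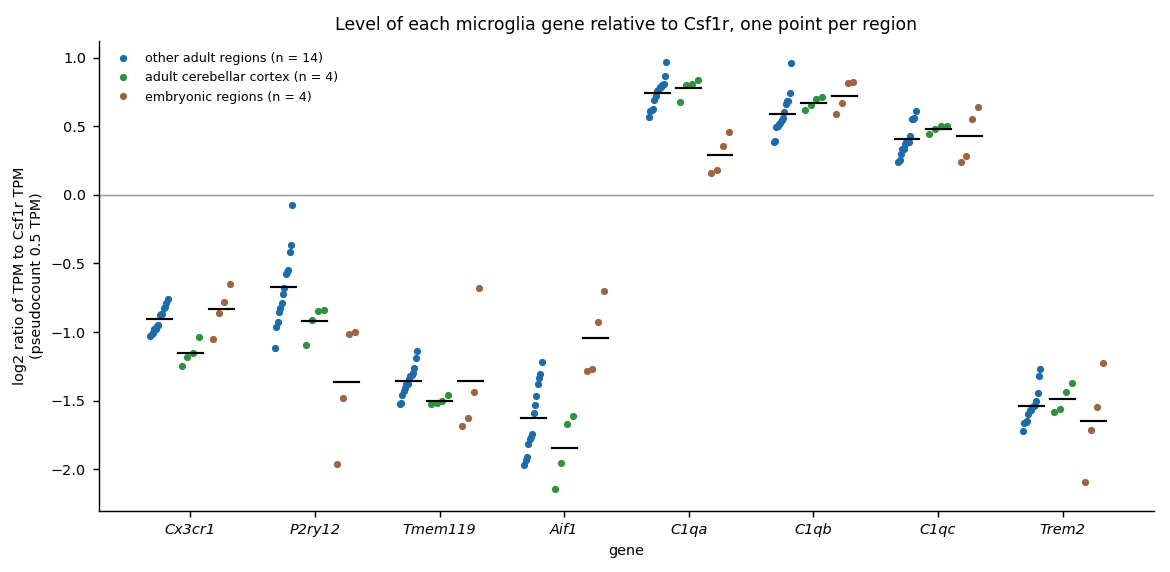
Log2 ratio of TPM of each of the other 8 members to Csf1r, with a point for the mean of each region: 14 adult regions outside the cerebellar cortex, 4 of the cerebellar cortex and 4 embryonic. For C1qa the embryonic points lie wholly below the adult points, and for Cx3cr1 the cerebellar cortex points, at -1.25 to -1.04, lie below the other adult points, at -1.03 to -0.76.

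The chains of C1q, which assemble in equal numbers in the protein, were not at equal transcript levels. C1qb was above C1qa in 8 of 9 embryonic libraries, all but THy/PHy replicate 1, and in 7 of 57 adult libraries. The ratio of C1qb to C1qa in TPM had a median of 1.38 in the embryo (0.855 to 2.37) and of 0.886 in the adult (0.741 to 2.06). Its highest values came from H replicate 1 and VTA replicate 1, the libraries with high mitochondrial shares. Without them it reached 1.64 in the embryo and 1.13 in the adult, and C1qb was above C1qa in 7 of 8 and 6 of 56 libraries.

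The difference between stages was itself compared between hypothalamus (THy/PHy against the 5 adult hypothalamic regions) and hindbrain (H against PB, NTS and DVC). For 4 of 9 members it was larger in the hypothalamus, where 15.1% of genes were called in that direction and 30.5% in all. For Trem2 the adult mean was 5.90 times the embryonic one in the hypothalamus (11.05 against 1.87 TPM) and 2.00 times in the hindbrain (8.76 against 4.37 TPM), a log2 difference of -1.29 ± 0.26 (adjusted p = 0.000141). Cx3cr1 differed by -0.80 ± 0.20 (adjusted p = 0.00196), P2ry12 by -0.86 ± 0.31 (0.0266) and Csf1r by -0.70 ± 0.24 (0.0204). Tmem119, at 2.32 times and 2.71 times, gave 0.23 ± 0.30 and was not called. The H libraries varied widely, and the call of Csf1r was lost without H replicate 3 and that of P2ry12 without THy/PHy replicate 1. Leaving out H replicate 1 and VTA replicate 1, 6 members were called. With limma on log2 TPM 1 was. Oligodendrocyte genes also differed between these contrasts, 6 of 6 in the other direction, and their part in the result was not tested.

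The ligands and adaptors of these receptors were followed next. Il34, a ligand of CSF1R made by neurons, had a mean of 107 TPM over cortical regions (73.0 to 127 over libraries), 81.4 TPM in ACB, 10.2 TPM in the vermal lobules and 1.86 TPM in the embryonic regions. Its log2 fold change was 2.30 in cortex, 1.64 in ACB, -1.94 in the cerebellar cortex and -4.68 in the embryo. Cx3cl1, the ligand of CX3CR1, followed the same order, at 610 TPM in cortex, 588 TPM in ACB, 60.4 TPM in the vermal lobules and 12.1 TPM in the embryo, with changes of 2.30, 1.85, -2.13 and -4.06. Csf1, the other ligand of CSF1R, did not. It was lower in cortex (-0.62) and ACB (-0.69), where it had 10.02 and 10.2 TPM, and highest in CBN at 22.8 TPM, and it fell by 0.45 in the cerebellar cortex and by 1.25 in the embryo. Tyrobp, the adaptor of TREM2, rose by 0.64 in cortex and 0.81 in ACB and fell by 1.18 in the cerebellar cortex and by 1.06 in the embryo. Of the 10 genes of this list, 4 were higher and 5 lower in the embryo (median -0.31), 6 higher and 3 lower in cortex, 0 higher and 8 lower in the cerebellar cortex, and 8 higher and 0 lower in FL. Over all genes, 37.6% were higher and 36.7% lower in the embryo, 28.9% and 29.8% in cortex, 32.9% and 33.1% in the cerebellar cortex, and 15.6% and 15% in FL, so that in the embryo the list stood near the background. Tgfbr1, a TGF-beta receptor, was among those higher in the embryo, at 2.55.

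Of 19 further microglia genes tested, 15 were lower and 2 higher in the embryo, with a median of -0.81, nearer to 0 than the -1.52 of the members. Selplg (-3.94), Siglech (-2.72), the protease Ctss (-2.66) and P2ry13 (-2.28) fell most. Sall1, a transcription factor of microglia that is also expressed by neural progenitors, and the lysosomal Cd68 were the ones that rose, by 1.43 and 0.31, and are named because they went the other way. In the cerebellar cortex 19 of 19 were lower (median -1.27), led by Slc2a5 (-2.45), Fcrls (-1.65), Selplg (-1.64) and Sall1 (-1.58). In cortex 19 of 19 were higher (median 0.70), Fcrls by 1.40 and Slc2a5 by 1.08. In ACB 17, in the hypothalamus 15 and in FL 19 were higher and 0 lower.

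Other complement genes were set beside the C1q chains. Of 11 such genes, including the C1 proteases, C3, C4b and inhibitors, 8 were lower and 3 higher in the embryo, C4b (-4.54), Cd59a (-2.09) and Itgb2 (-2.03) among the lower. In cortex, where all 3 chains rose, 7 were lower and 1 higher (median -0.46), with C3 at -2.61 and the inhibitor of C1, Serping1, at -1.32. In the cerebellar cortex 3 were lower and 2 higher (median -0.01), no more than the 33.1% and 32.9% of all genes, with Serping1 at 1.25 and Itgb2, a subunit of the complement receptor CR3, at -1.15. In FL 5 were higher and 0 lower, C4b by 1.79.

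Genes that microglia raise in disease, a list of 9 tested, were lower for 6 and higher for 2 in the embryo (median -1.29, with Spp1 at -2.89 and Gpnmb at -2.23). Over all genes 36.7% were lower and 37.6% higher there. The list summed to 1238 to 1468 TPM in mESC and 230 to 991 TPM in adult libraries, so it was not restricted to brain. In the cerebellar cortex 3 were lower and 1 higher, Gpnmb, at 1.47, with a median of -0.13. Over all genes 33.1% were lower and 32.9% higher there, so the 3 lower genes stood near the background. In FL 4 were higher and 0 lower, where 15.6% and 15% of all genes were. Spp1, a gene that other cells of the brain make as well, rose there by 4.51. Border macrophage genes were higher for 3 and lower for 0 of 8 in the cerebellar cortex (Pf4 0.62, Mrc1 0.59, Cbr2 0.53), where all 9 members were lower. The 3 higher genes stood near the 32.9% of all genes called higher there. In cortex, where all 9 members were higher, 2 were higher and 2 lower, near the 28.9% and 29.8% of all genes.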

How the data were processed

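RNA was measured in 70 libraries from 24 groups, grouped as labelled. Estimated counts per transcript were made by the authors with kallisto on the GRCm38 cDNA, after base calling with CASAVA 1.8.2, and were deposited without normalization. The deposited TPM values came from the same run, were scaled within each library and were summed per gene. TPM depends on all other transcripts of a library, so a library rich in mitochondrial reads has lower TPM for other genes. Of 109282 transcripts, 107987 (98.8%) were matched to genes with GENCODE M21, and counts were summed per gene and rounded. Matched and deposited TPM differed by more than 1% for 373 genes, 0 of them members.

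Members and gene lists were chosen with earlier results of these data known, and a pattern already known is no independent support. All 9 members are named. From other lists up to 4 called genes with the largest change are named, together with ligands, adaptors and the genes of most similar profile. Sall1 and Cd68 were chosen after their values were seen.

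Counts were tested with the quasi-likelihood test of edgeR 4.0.16 under R 4.3.3 (TMM scaling, filterByExpr, a coefficient for each group), with Benjamini-Hochberg adjustment over 19980 genes and calls at 0.05. The study's methods use DESeq2, which was an alternative (1.42.0), as were limma 3.58.1 on log2(TPM + 0.5) or log2(TPM + 0.1), no filter on low counts, a replicate block, only the stages compared, an absolute log2 fold change above 1 and each library left out. The test was tested on simulated data for embryonic against adult regions with 17890 genes tested: 200 of 200 changed genes were called, and 10 unchanged ones. Ratios were tested by exact permutation over region means. Python 3.11.15, NumPy 2.4.6, SciPy 1.17.1, pandas 2.3.3 and matplotlib 3.10.9 were used for the rest. Total counts ranged from 9074581 to 22229582. The study's sample overview lists batches beside each region, with none shared between stages, but not which library each was, so no values within batches are given. The flocculus comparison and the fit without VTA replicate 1 and H replicate 1 were added after seeing the data.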

Additional observations from a re-analysis of the deposited data

Results flagged for a closer look

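Of 45 sets of 4 replicates (a member in a region with 4 libraries), 3 had a library set far apart from the other replicates, where chance flags about 5% of sets. Tmem119 in CENT2 replicate 1 was 6.74 TPM and the nearest replicate 3.98 TPM. C1qc in DMH replicate 3 was 35.1 TPM, with the nearest at 40.3 TPM. Trem2 in FL replicate 3 was 10.3 TPM, with the nearest at 8.05 TPM.

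The embryonic to adult difference was larger in the hypothalamus than in the hindbrain for 4 members by edgeR's test of the difference itself, with log2 values of -0.80 for Cx3cr1, -0.86 for P2ry12, -0.70 for Csf1r and -1.29 for Trem2.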

How the results depend on the processing

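The 9 members kept their calls and directions in all alternatives for the embryonic against adult, mESC against embryonic and cerebellar cortex comparisons. Members called in at least 1 fit of a comparison kept call and direction in 565 values under other settings. They gained a call in 5, lost it in 49 and changed sign in 11. Members never called in a comparison, such as all 9 in CBN, are not in these counts. A value that changed sign was counted there only, even where its call was lost too. With an absolute log2 fold change above 1, calls dropped to 2 in cortex, 1 in ACB, 1 in VTA, 1 in FL, 1 in the comparison of stage effects, and 0 in the hypothalamus and the hindbrain nuclei. Without VTA replicate 1 and H replicate 1, 4 members were called in VTA. With limma at either pseudocount 1 was called in the comparison of stage effects, and with ratios to Cx3cr1 5 passed in the cerebellar cortex. Leaving out single libraries gave 8 to 9 calls in the hypothalamus, 0 to 1 in the hindbrain nuclei, 1 to 4 in VTA (1 without VTA replicate 3, 4 without VTA replicate 1), 3 to 5 in the comparison of stage effects, 3 to 4 ratios between stages and 1 to 2 in the cerebellar cortex.

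Directions changed in VTA. With limma (pseudocount 0.5, then 0.1) Tmem119 was -0.589 and -0.65, C1qa -0.40 and -0.41, C1qb -0.0631 and -0.0640, C1qc -0.44 and -0.45 and Trem2 -0.48 and -0.51, and with the replicate block Tmem119 was -0.0191. With single libraries left out, VTA values ran from -0.28 to 0.37 for Tmem119, from -0.0554 to 0.65 for C1qa, from -0.0112 to 0.53 for C1qc and from -0.0562 to 0.27 for Trem2, and stage effects from -0.66 to 0.17 for C1qa and from -0.62 to 0.0034 for C1qc. The cause was not tested. The median of all genes differed by 0.15 (DESeq2) and -0.22 (limma) from edgeR for mESC and by -0.39 (limma) for VTA.

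Same-numbered libraries of different groups did not deviate together (median r of 0.012 over 669 pairs), and numbers were not taken as pairs. The 29 of 69 libraries that correlated best with their own number were not compared with a rate by chance. Which libraries share mice is not given by the labels, and the numbers need not follow it. The check and the replicate block thus cannot show whether regions from the same mice vary together. With the replicate block Aif1 was no longer called in the hypothalamus, leaving 8, and the other counts were 9 for embryonic against adult and 9 for cerebellar cortex. Aif1, with as few as 5 counts in a library, and the mESC levels are limited by depth.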
